A study of Mus musculus with 18 samples.

Results

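Immediate early genes are the first genes transcribed when a receptor is stimulated, and 10 of them were followed here in primary mouse pre-B cells: Fos, Fosb, Jun, Junb, Jund, Egr1, Egr2, Egr3, Ier2 and Nr4a1. They were chosen by name, as every probe whose platform symbol is one of the 10, and each had 1 probe among the 25697 probes and 16593 named genes of the Illumina MouseRef-8 array. Pre-B cells were grown for 7 to 10 days with 5 ng/mL of the cytokine IL-7 from bone marrow of mice 4 to 6 weeks old, on a background mixed from C57BL/6 and BALB/c. The 18 arrays cover 3 independent cultures of each of 3 genotypes, each culture measured once in IL-7 (day 0) and once 2 days after IL-7 was taken away. The genotypes are Art-/-:Nfkb2-/-:IgH:Bcl2, Art-/-:IgH:Bcl2 and Rag-/-:IgH:Bcl2, and all of them therefore carry an immunoglobulin heavy chain (μIgH) and a Bcl2 transgene, the controls included. The promoters of these transgenes, and whether a culture came from 1 animal or several, are not stated by the labels.

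The RAG recombinase cuts DNA at the immunoglobulin loci, and Artemis (Art) opens the hairpin ends so that they can be joined. Rag-/- cells make no such breaks, whereas in Art-/- cells the breaks made after IL-7 withdrawal are not repaired. Nfkb2 encodes p100, the precursor of the p52 subunit of NF-κB. The title of the study asks how RAG breaks act on signals of the pre-B cell receptor, which pairs the heavy chain with the surrogate light chain and signals through the kinase SYK and, downstream, RAS and ERK.

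Immediate early genes are an RNA readout of such signalling because ERK activates factors already bound at their promoters, among them the ETS factors ELK1 and ELK4 beside SRF at the CArG box, while cAMP and stress kinases act through CREB and ATF factors at the cAMP response element (CRE). FOS and FOSB pair with JUN, JUNB or JUND to form AP-1, which binds DNA in turn. EGR1, EGR2 and EGR3 are zinc finger factors and NR4A1 is an orphan nuclear receptor, both induced by antigen receptors in lymphocytes, and IER2 is a small nuclear protein of the same early wave. Most of these messages decay within an hour of the stimulus, so cells sampled after 2 days show a standing level and not the first burst.

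The promoters of 3 AP-1 genes are shown because Fos, Fosb and Junb carry most of the differences described here. RefSeq (GRCm38.p6) gives a promoter entry for 7 of the 10 genes, and the 250 bases before the start of transcription lie at chr12:85473640-85473889 on the plus strand for Fos, at chr7:19310046-19310295 on the minus strand for Fosb and at chr8:84978749-84978998 on the minus strand for Junb. They are written 5′ to 3′ on the strand of the gene, and capitals mark TGACG, the core of the CRE.
Fos: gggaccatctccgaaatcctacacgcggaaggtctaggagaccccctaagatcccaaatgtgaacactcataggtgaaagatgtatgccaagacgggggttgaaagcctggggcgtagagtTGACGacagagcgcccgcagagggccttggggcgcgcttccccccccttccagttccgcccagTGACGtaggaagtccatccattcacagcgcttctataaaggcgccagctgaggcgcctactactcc
Fosb: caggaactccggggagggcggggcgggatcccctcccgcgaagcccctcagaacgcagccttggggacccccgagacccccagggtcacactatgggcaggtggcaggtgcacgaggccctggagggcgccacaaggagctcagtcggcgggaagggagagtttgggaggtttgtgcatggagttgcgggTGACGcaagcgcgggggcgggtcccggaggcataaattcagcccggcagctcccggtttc
Junb: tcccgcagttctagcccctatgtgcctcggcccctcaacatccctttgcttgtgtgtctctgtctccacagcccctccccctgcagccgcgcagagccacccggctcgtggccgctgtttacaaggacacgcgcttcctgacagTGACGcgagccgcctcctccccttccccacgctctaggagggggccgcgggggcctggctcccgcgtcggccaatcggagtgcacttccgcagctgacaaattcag

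This core begins 129 and 66 bases before the start in Fos, 60 bases before it in Fosb and 106 bases before it in Junb. Searched on both strands, TGACG was found in 5 of the 7 genes (Egr2, in some of its start sites, Fos, Fosb, Junb and Nr4a1), against 17.8% of all 32851 promoter windows of the same length. The full palindromic CRE, TGACGTCA, which contains the core, was in 0 of the 7 genes and in 1.55% of windows. The AP-1 site TGANTCA and the STAT site TTCNNNGAA were in 0 of the 7 genes, against 6.75% and 7.02% of windows. An EGR site, GCGNGGGCG, was in 2 of the 7 genes, Fosb and Nr4a1, against 4.7% of windows, and a CArG box was in 1, Egr2, against 1.47%. These matches describe the letters of the windows only. Sites farther upstream than 250 bases were not searched, and Egr1, Egr3 and Ier2 had no entry, so a missing match does not mean that a gene lacks the site.

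All 18 arrays were alike in depth, with 10091 to 10894 probes detected per array (39.3% to 42.4%), a median signal of 129.3 to 163.0 before normalization and correlations of 0.976 to 0.993 between replicates. A probe was called detected at a detection p below 0.01. Pre-B markers were present on every array (7 or 8 of 8 on the platform). The probe for Nfkb2 was not lower in cells labelled as lacking Nfkb2 (log2 signal 9.21 after withdrawal and 8.01 in IL-7, against 8.80 and 7.70 in the Art-labelled cells), and Rag1 was brightest in the Rag-labelled cells, so neither probe checks a label and the genotypes are called by their labels throughout. Y-linked genes were detected in 1 Art:Nfkb2-labelled culture, 0 Art-labelled cultures and 3 Rag-labelled cultures, so sex and genotype cannot be told apart between the Art and Rag labels. The Rag-labelled withdrawn array of replicate 1 stood apart from its group in several AP-1 genes, and results that turn on it are given without it.

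Tests were possible for 8 of the 10 genes, since Egr3 was detected on 1 of 18 arrays and Nr4a1 on 0 of 18, under the 3 arrays required. Signals are on the log2 scale after background correction and quantile normalization, so 1 unit is a doubling, and a gene is called where the adjusted p of limma, over all 8446 genes tested, is below 0.05. Ier2 was detected on 4 of 18 arrays and passed that filter through its IL-7 arrays, where it is high, so it had to differ and is left out of the counts here. Of the 7 other genes tested, IL-7 withdrawal lowered 2 in Rag-labelled cells (Fos and Fosb), raised 3 in Art-labelled cells (Egr1, Junb and Jund) and lowered 1 in Art:Nfkb2-labelled cells (Fos). Withdrawal moved much of the transcriptome. In Art:Nfkb2-labelled cells 17.9% of all genes tested were called lower and 40.6% were called either way. For Art-labelled cells 26.2% were higher and 45% called, and for Rag-labelled cells 19.4% were lower and 44.4% called. The members' counts in these 3 comparisons were therefore near the background.

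In IL-7 the Art-labelled cells differed from both other genotypes in Fos, Fosb and Junb. Art-labelled cells had 3 of the 7 members lower than Rag-labelled cells, where 2.83% of all genes were lower and 6.46% were called. Art:Nfkb2-labelled cells had the same 3 genes higher than Art-labelled cells, where 3.01% of all genes were higher and 4.39% were called. At an unadjusted p under 0.05 by limma, 4 of the 7 differed in the first comparison and 6 of the 7 in the second. Both comparisons rest on the same 3 Art-labelled arrays. Between Art:Nfkb2-labelled and Rag-labelled cells in IL-7, limma called 0 of the 7, with 1 at an unadjusted p under 0.05, where 4.72% of all genes were lower and 11.4% were called. After withdrawal 1 member was lower in Art-labelled than in Rag-labelled cells (Fosb, with 8.89% of all genes lower and 19% called) and 1 was higher in Art:Nfkb2-labelled than in Rag-labelled cells (Egr1, with 12.6% higher and 25.6% called). Art:Nfkb2-labelled and Art-labelled withdrawn cells differed in 0 members by limma's adjusted p and in 3 at an unadjusted p under 0.05, where 3.99% of all genes were called.

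**Figure D1:**
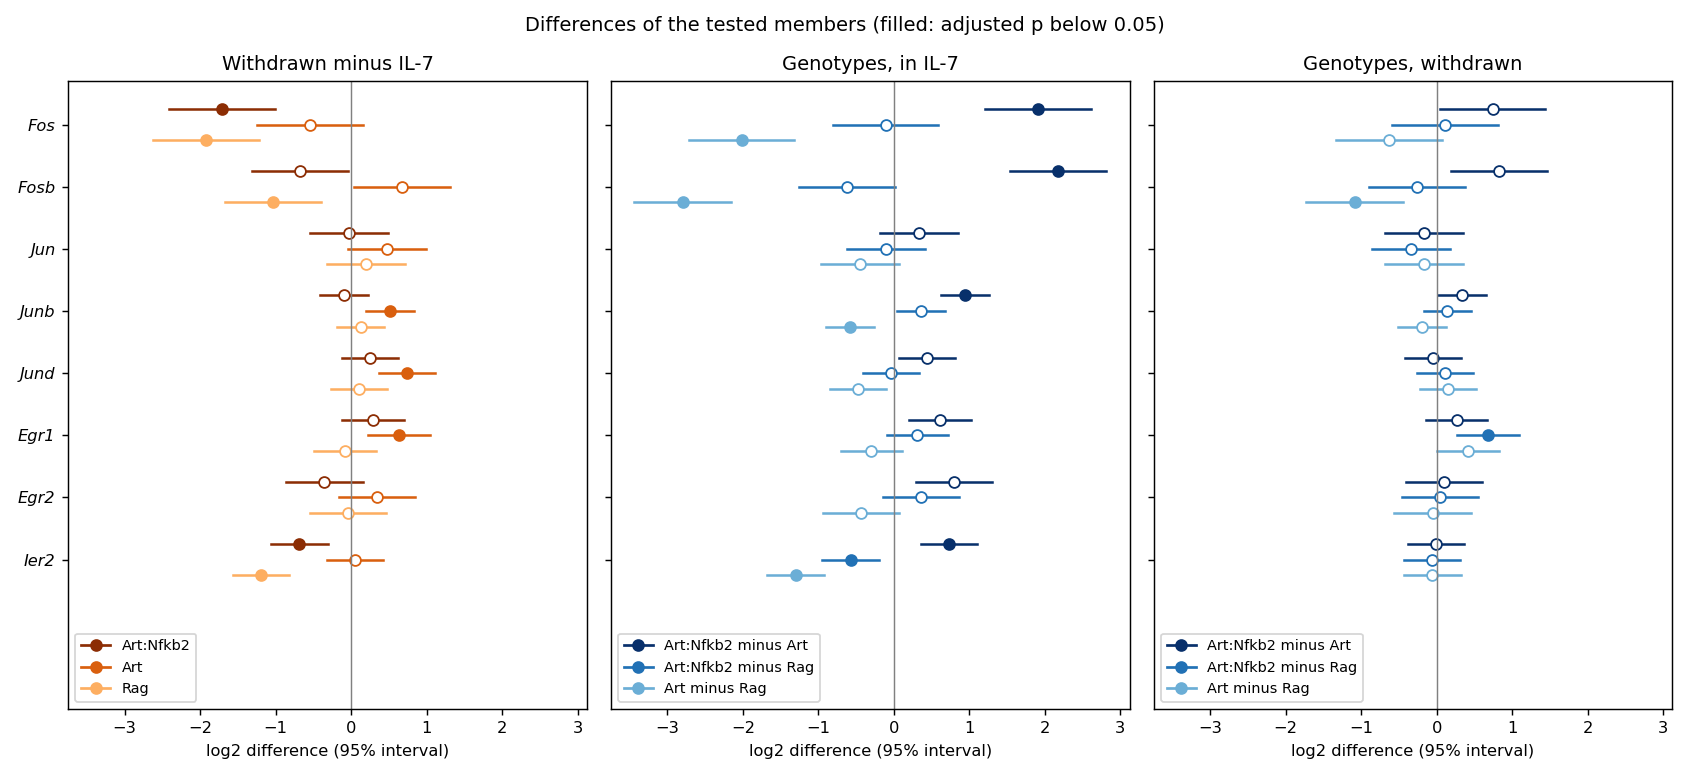
Log2 differences of the 8 tested genes (rows) with their 95% intervals (bars), for withdrawn minus IL-7 cells of each genotype (left), and for genotypes in IL-7 (middle) and after withdrawal (right); filled points have an adjusted p below 0.05. The Fos and Fosb points lie farthest from 0 in the middle panel, at -2.02 and -2.80 for Art minus Rag and at 1.91 and 2.17 for Art:Nfkb2 minus Art.

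Fos, the AP-1 partner with the steepest known induction by growth factors, was highest in IL-7 with the Art:Nfkb2 and Rag labels. After withdrawal its log2 signal was 8.56, 8.43 and 8.37 with the Art:Nfkb2 label, 7.89, 7.78 and 7.47 with the Art label and 7.33, 9.12 and 8.58 with the Rag label. In IL-7 it was 10.17, 10.24 and 10.07 with the Art:Nfkb2 label, 8.45, 8.40 and 7.92 with the Art label and 9.78, 10.40 and 10.64 with the Rag label. The Art:Nfkb2 and Rag arrays in IL-7 overlapped each other and lay above every other array, and the Art withdrawn arrays were the lowest group, although the Rag replicate 1 array after withdrawal was lower still.

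Withdrawal lowered Fos 3.27-fold in Art:Nfkb2-labelled cells (log2 difference -1.71, 95% interval -2.41 to -1.01, adjusted p = 0.000781) and 3.80-fold in Rag-labelled cells (-1.93, -2.63 to -1.23, adjusted p = 0.000272). In Art-labelled cells the difference was -0.54 (-1.24 to 0.16, adjusted p = 0.193), and with the culture as a block, which pairs the 2 arrays of a culture, its adjusted p was 0.0221. Fos was lower after withdrawal in 3 of 3 cultures of every genotype, with differences of -1.81 to -1.61 in Art:Nfkb2-labelled, -0.62 to -0.45 in Art-labelled and -2.45 to -1.27 in Rag-labelled cultures.

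In IL-7, Fos was 4.05-fold lower in Art-labelled than in Rag-labelled cells (-2.02, -2.72 to -1.32, adjusted p = 0.00138) and 3.75-fold higher in Art:Nfkb2-labelled than in Art-labelled cells (1.91, 1.21 to 2.61, adjusted p = 0.00325). Art:Nfkb2-labelled and Rag-labelled cells in IL-7 were not told apart, with a difference of -0.11 and an interval of -0.81 to 0.59 (adjusted p = 0.891). After withdrawal the Art minus Rag difference was -0.63 (adjusted p = 0.217), and it was called without the Rag withdrawn array of replicate 1, at -1.14 (adjusted p = 0.00295). The Art:Nfkb2 minus Art difference after withdrawal was 0.74 (adjusted p = 0.31).

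Fosb, a second FOS protein, had its own order of groups. After withdrawal Fosb was 7.74, 7.98 and 7.87 with the Art:Nfkb2 label, 6.82, 7.45 and 6.84 with the Art label and 7.38, 8.54 and 8.46 with the Rag label. In IL-7, Fosb was 8.33, 8.82 and 8.47 with the Art:Nfkb2 label, 6.69, 6.51 and 5.89 with the Art label and 9.03, 8.82 and 9.64 with the Rag label. The Art arrays were the lowest 3 in IL-7, and the gene was not detected on the third.

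Fosb was 6.95-fold lower in Art-labelled than in Rag-labelled cells in IL-7 (log2 difference -2.80, -3.44 to -2.16, adjusted p = 3.37e-05), the largest genotype difference among the tested members. It was 4.51-fold higher in Art:Nfkb2-labelled than in Art-labelled cells in IL-7 (2.17, 1.54 to 2.81, adjusted p = 0.000591). These calls, and those of Fos between the same groups, held under every alternative tried, with adjusted p-values up to 0.0212. Without background correction the Fosb differences were smaller, at -1.85 for Art minus Rag and 1.34 for Art:Nfkb2 minus Art. After withdrawal Fosb was still 2.12-fold lower in Art-labelled than in Rag-labelled cells (-1.09, adjusted p = 0.0175), with ranges that overlapped through the Rag replicate 1 array. That call was lost without Art replicate 1 (adjusted p = 0.0685), Art replicate 3 (0.0708), Rag replicate 2 (0.0715) or Rag replicate 3 (0.0774), with array weights (0.0761) and when only these groups were fitted (0.0884).

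Fosb moved the same way on withdrawal in all cultures of a genotype. It was higher in 3 of 3 Art-labelled cultures (0.13 to 0.95). Lower values followed withdrawal in 3 of 3 Art:Nfkb2-labelled cultures (-0.84 to -0.58) and 3 of 3 Rag-labelled cultures (-1.64 to -0.28). Tests of the response between genotypes are given further below. The fall was called in Rag-labelled cells, at 2.05-fold (-1.04, adjusted p = 0.0113), but not without their withdrawn replicate 1 (-0.66, adjusted p = 0.0628) or their IL-7 replicate 3 (-0.80, adjusted p = 0.0611), or when only these groups were fitted (0.0677). The differences of -0.67 in Art:Nfkb2-labelled cells (adjusted p = 0.0861) and 0.68 in Art-labelled cells (0.0792) were called with the culture as a block (adjusted p = 0.0324 and 0.0296).

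Markers of myeloid cells were measured beside the members. In bulk RNA, fewer cells of a type and less RNA per cell cannot be told apart, so the summed signal of the 16 myeloid markers on the platform is given, of which Itgam and Cybb were detected on no array. After withdrawal the sum was 9318 to 13526 in Art:Nfkb2-labelled, 5280 to 5939 in Art-labelled and 2493 to 9857 in Rag-labelled cells. In IL-7 it was 19615 to 28392 with the Art:Nfkb2 label, 10068 to 11654 with the Art label and 9490 to 26406 with the Rag label. In IL-7 every Art-labelled array had a lower sum than every Art:Nfkb2-labelled array. Over the 18 arrays the mean marker level had a Pearson r of 0.81 with Fos, 0.54 with Fosb and 0.57 with Ier2, given as a description of arrays that share cultures. After group means were removed these values were 0.63, 0.51 and 0.07. Without the 2 arrays farthest from the median marker level they were 0.75, 0.37 and 0.53.

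Of 13 myeloid markers tested, withdrawal lowered 5 in Art:Nfkb2-labelled cells, 2 in Art-labelled cells and 5 in Rag-labelled cells. Over all genes tested, withdrawal lowered 17.9%, 18.8% and 19.4% in that order. Some markers were detected on few of the 18 arrays: Ltf on 3, Elane on 6, and Mpo and S100a9 on 7. In IL-7, 4 markers were higher in Art:Nfkb2-labelled than in Art-labelled cells, where 3.01% of all genes were higher. Between Art-labelled and Rag-labelled cells in IL-7, 0 markers were called, beside 6.46% of all genes, and their median difference was -0.74. Between Art:Nfkb2-labelled and Rag-labelled cells, 4 markers were higher with the Art:Nfkb2 label after withdrawal (median 0.64, beside 12.6% of all genes). In IL-7, 2 markers were higher with that label (median 0.55, beside 6.68% of all genes). The Fos differences between these 2 genotypes were 0.11 after withdrawal and -0.11 in IL-7. Cd14, a receptor for lipopolysaccharide on monocytes, was not called between Art-labelled and Rag-labelled cells in IL-7 (log2 difference -1.06, adjusted p = 0.127). In IL-7 it was higher in Art:Nfkb2-labelled than in Art-labelled cells (1.74, adjusted p = 0.017). After withdrawal Cd14 was lower with the Art:Nfkb2 label (-2.17, adjusted p = 0.0004), the Art label (adjusted p = 0.00475) and the Rag label (-2.14, adjusted p = 0.000411). No Art-labelled withdrawn array detected it. Of 2 natural killer markers tested, 1 was higher in Art:Nfkb2-labelled than in Art-labelled cells in IL-7, and Klrb1c and Ncr1 were detected on no array. The summed signal of these markers there was 772 to 1277 with the Art:Nfkb2 label and 455 to 595 with the Art label.

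Some arrays of different groups had similar marker levels. The Rag-labelled IL-7 array of replicate 1 had a myeloid sum of 9490, below all 3 Art-labelled IL-7 arrays, and its Fos signal of 9.78 and Fosb signal of 9.03 were above theirs, at 7.92 to 8.45 and 5.89 to 6.69. The other Rag-labelled IL-7 arrays had sums of 17881 and 26406. The Rag-labelled withdrawn array of replicate 1 had the lowest sum of all arrays, 2493, against 8688 and 9857 for replicates 2 and 3. The Art-labelled withdrawn arrays had 5280 to 5939. Results given without that replicate 1 array, such as the Fos call of Art against Rag after withdrawal, therefore also leave out the lowest marker level. The Art:Nfkb2-labelled withdrawn arrays, with sums of 9318 to 13526, bracketed the Art-labelled IL-7 arrays in marker level. Their Fos, at 8.37 to 8.56, overlapped that of the Art-labelled IL-7 arrays, and their Fosb, at 7.74 to 7.98, was above it. Between the Art:Nfkb2-labelled and Art-labelled cells in IL-7 no arrays overlapped in marker sum. The part of myeloid cells in the Fos and Fosb differences between any of the groups was not tested.

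**Figure D2:**
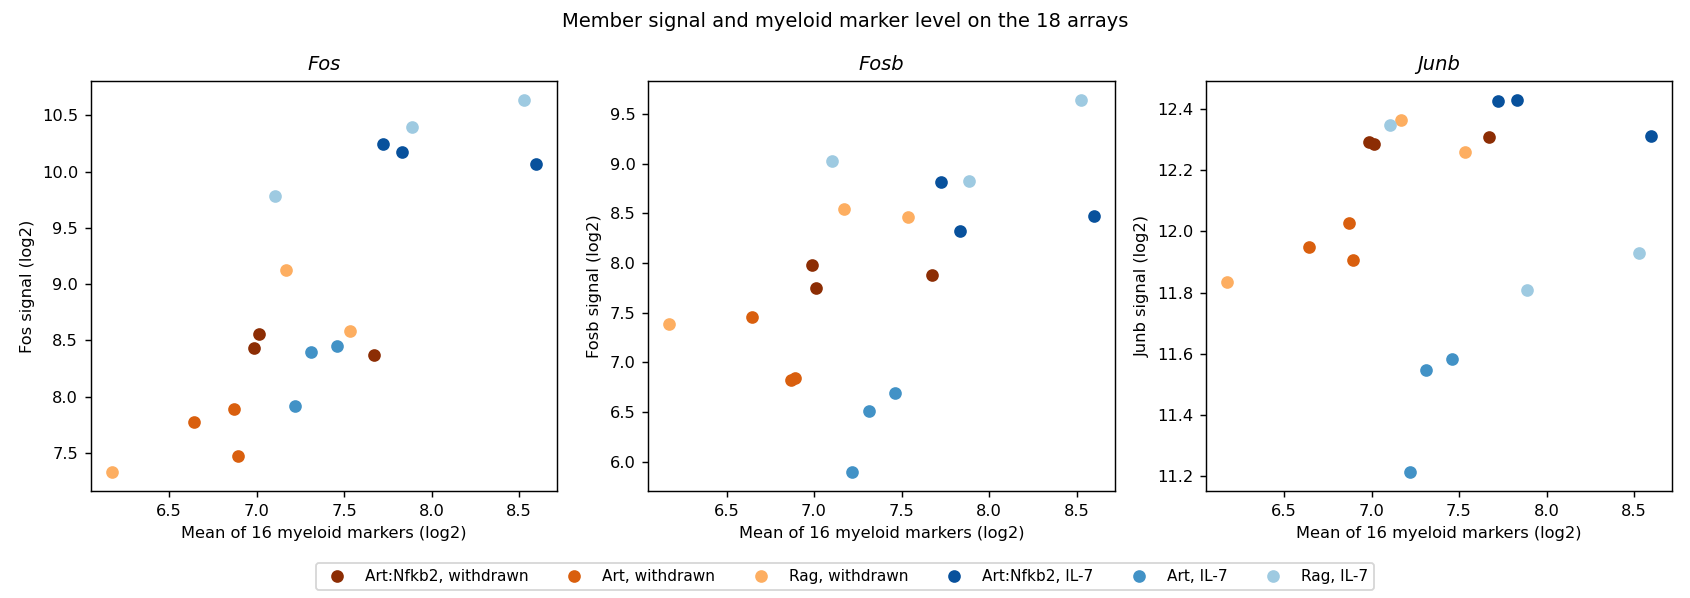
Log2 signal of Fos, Fosb and Junb (vertical axes) against the mean log2 signal of 16 myeloid markers (horizontal axes), with 1 point per array coloured by group. Fos and the marker level had a Pearson r of 0.81, and at marker levels between 7.1 and 7.5 the Rag-labelled IL-7 array (9.78) lies above the 3 Art-labelled IL-7 arrays (7.92 to 8.45).

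Junb, an AP-1 partner that is itself a direct target of several cytokines, was lowest in Art-labelled cells in IL-7. After withdrawal Junb was 12.28, 12.29 and 12.31 with the Art:Nfkb2 label, 12.03, 11.95 and 11.91 with the Art label and 11.84, 12.36 and 12.26 with the Rag label. In IL-7, Junb was 12.43, 12.43 and 12.31 with the Art:Nfkb2 label, 11.58, 11.55 and 11.21 with the Art label and 12.35, 11.81 and 11.93 with the Rag label. The 3 Art-labelled IL-7 arrays were lower than all other arrays.

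Junb was 1.92-fold higher in Art:Nfkb2-labelled than in Art-labelled cells in IL-7 (log2 difference 0.94, 0.63 to 1.26, adjusted p = 0.00145), which held under every alternative tried (adjusted p up to 0.0119). It was 1.5-fold lower in Art-labelled than in Rag-labelled cells in IL-7 (-0.58, -0.89 to -0.27, adjusted p = 0.0281), a call lost when only these groups were fitted (0.157), with the culture as a block (0.0552) and without Art replicate 3 (-0.46, adjusted p = 0.128), Rag replicate 1 (-0.42, 0.0844) or Rag replicate 3 (-0.63, 0.0556). Withdrawal raised it 1.43-fold in Art-labelled cells (0.51, 0.20 to 0.83, adjusted p = 0.0104), or by 0.40 without the IL-7 array of replicate 3 (adjusted p = 0.059). In the other genotypes the withdrawal difference was -0.09 (Art:Nfkb2-labelled, adjusted p = 0.643) and 0.13 (Rag-labelled, adjusted p = 0.519). The Art:Nfkb2 minus Rag difference in IL-7 was 0.36 (adjusted p = 0.145), and was called without Rag replicate 1, at 0.52 (adjusted p = 0.027).

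Jund, the JUN protein that most cells hold at a steady level, rose on withdrawal in the Art-labelled cells. It was 11.22, 10.99 and 11.06 in Art-labelled withdrawn cells, against 10.55, 10.38 and 10.13 in Art-labelled cells in IL-7, so the groups did not overlap. The rise was 1.66-fold (0.73, 0.36 to 1.11, adjusted p = 0.00298). In Art:Nfkb2-labelled cells Jund was 11.36, 10.97 and 10.81 after withdrawal and 10.82, 10.82 and 10.76 in IL-7, a difference of 0.25 (adjusted p = 0.279). In Rag-labelled cells it was 10.74, 10.85 and 11.22 after withdrawal and 11.20, 10.63 and 10.67 in IL-7, a difference of 0.10 (adjusted p = 0.663). In IL-7 the Art-labelled arrays were below those of both other genotypes, but neither difference was called (-0.48 against Rag, adjusted p = 0.126, and 0.44 for Art:Nfkb2 minus Art, adjusted p = 0.195).

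Jun, the partner that gives AP-1 its name and is activated by the kinase JNK, was called in no comparison with all 18 arrays. After withdrawal Jun was 11.61, 11.27 and 10.82 with the Art:Nfkb2 label, 11.51, 11.28 and 11.43 with the Art label and 10.91, 12.14 and 11.67 with the Rag label. In IL-7, Jun was 11.37, 11.35 and 11.07 with the Art:Nfkb2 label, 11.13, 10.84 and 10.80 with the Art label and 11.28, 11.49 and 11.35 with the Rag label. The Art-labelled withdrawn arrays lay above the Art-labelled IL-7 arrays, by 0.48 (-0.04 to 1.0, adjusted p = 0.121), a difference called with the culture as a block (0.0319), and in IL-7 the Art-labelled arrays lay below the Rag-labelled arrays (-0.45, adjusted p = 0.322). Without the Rag-labelled withdrawn replicate 1, Jun was called higher after withdrawal in Rag-labelled cells (0.53, adjusted p = 0.0464) and lower in Art:Nfkb2-labelled than in Rag-labelled withdrawn cells (-0.67, adjusted p = 0.0241).

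Egr1, a zinc finger factor that ERK induces through SRF and ELK sites, was detected on every array. After withdrawal Egr1 was 12.63, 12.79 and 13.10 with the Art:Nfkb2 label, 12.75, 12.61 and 12.37 with the Art label and 12.44, 12.11 and 11.93 with the Rag label. In IL-7, Egr1 was 12.57, 12.56 and 12.53 with the Art:Nfkb2 label, 11.89, 12.17 and 11.76 with the Art label and 12.71, 11.91 and 12.10 with the Rag label. Each neighbour in the order of the 6 groups overlapped the next.

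Withdrawal raised Egr1 1.55-fold in Art-labelled cells (log2 difference 0.63, 0.23 to 1.04, adjusted p = 0.014), and in 3 of 3 cultures. The call was lost without withdrawn replicate 1 (0.55, adjusted p = 0.0598) or IL-7 replicate 3 (0.54, adjusted p = 0.0605). The withdrawal difference was 0.29 in Art:Nfkb2-labelled cells (-0.12 to 0.70, adjusted p = 0.251) and -0.08 in Rag-labelled cells (-0.49 to 0.33, adjusted p = 0.766). Egr1 was 1.60-fold higher in Art:Nfkb2-labelled than in Rag-labelled withdrawn cells (0.68, 0.27 to 1.09, adjusted p = 0.0159). This was not called without the Art:Nfkb2-labelled culture that had Y-linked signal (0.55, adjusted p = 0.0947), without its withdrawn array alone (0.55, 0.0781) or without Rag replicate 3 (0.56, 0.072). The Art minus Rag difference after withdrawal was 0.41 (0.00 to 0.82, adjusted p = 0.16). In IL-7 the Art:Nfkb2 minus Art difference was 0.61 (0.20 to 1.02, adjusted p = 0.0947), and the arrays of these groups did not overlap. It was called when only these groups were fitted (adjusted p = 0.034) and with array weights (0.0301).

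Egr2, which restrains antigen receptor signalling in lymphocytes, was dim and was not called in any comparison. Its group means ran between 7.11 in Art-labelled cells in IL-7 and 7.91 in Art:Nfkb2-labelled cells in IL-7, a difference of 0.79 (0.29 to 1.30, adjusted p = 0.0755), and the arrays of these groups did not overlap. Egr3, of the same family, gave signals of 5.43 to 6.28 and was detected on 1 Art:Nfkb2-labelled IL-7 array. Nr4a1, which reports antigen receptor signalling in mature B and T cells, gave 4.64 to 5.04 and was detected on no array, so these probes set no level for either gene.

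Ier2 was detected on 4 of 18 arrays, all in IL-7. Its signal in IL-7 was 5.86, 6.28 and 5.44 with the Art:Nfkb2 label, 5.18, 5.12 and 5.09 with the Art label, and 6.45, 6.19 and 6.67 with the Rag label, and all 3 Rag-labelled arrays but only replicate 2 of the Art:Nfkb2-labelled arrays detected it. After withdrawal it was 5.01 to 5.26 with the Art:Nfkb2 label, 5.15 to 5.23 with the Art label and 5.09 to 5.52 with the Rag label, not well above background on any array. Because Ier2 entered the test through arrays where it is high, its adjusted p-values are given as a description. They were below 0.05 for withdrawal in Rag-labelled cells (7.21e-05) and in Art:Nfkb2-labelled cells (0.00605).

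Groups not above background have only a bound, which sets the bright mean against, per array, the higher of the dim probe's own signal and the lowest signal among detected probes. With the Rag label, this bound put Ier2 at least 1.07-fold lower on withdrawn than on IL-7 arrays. In IL-7, the Art label had at least 1.19-fold less Ier2 signal than the Rag label (adjusted p = 0.000334). For withdrawal with the Art:Nfkb2 label, and for the Art:Nfkb2 against the Art label in IL-7 (adjusted p = 0.0284, below 0.05 under 9 of 16 alternatives), the bound was under 1 and no fold is given. Art:Nfkb2-labelled against Rag-labelled cells in IL-7, detected on 1 and 3 arrays, differed by -0.57 (adjusted p = 0.0475, below 0.05 under 6 of 16 alternatives).

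**Figure D3:**
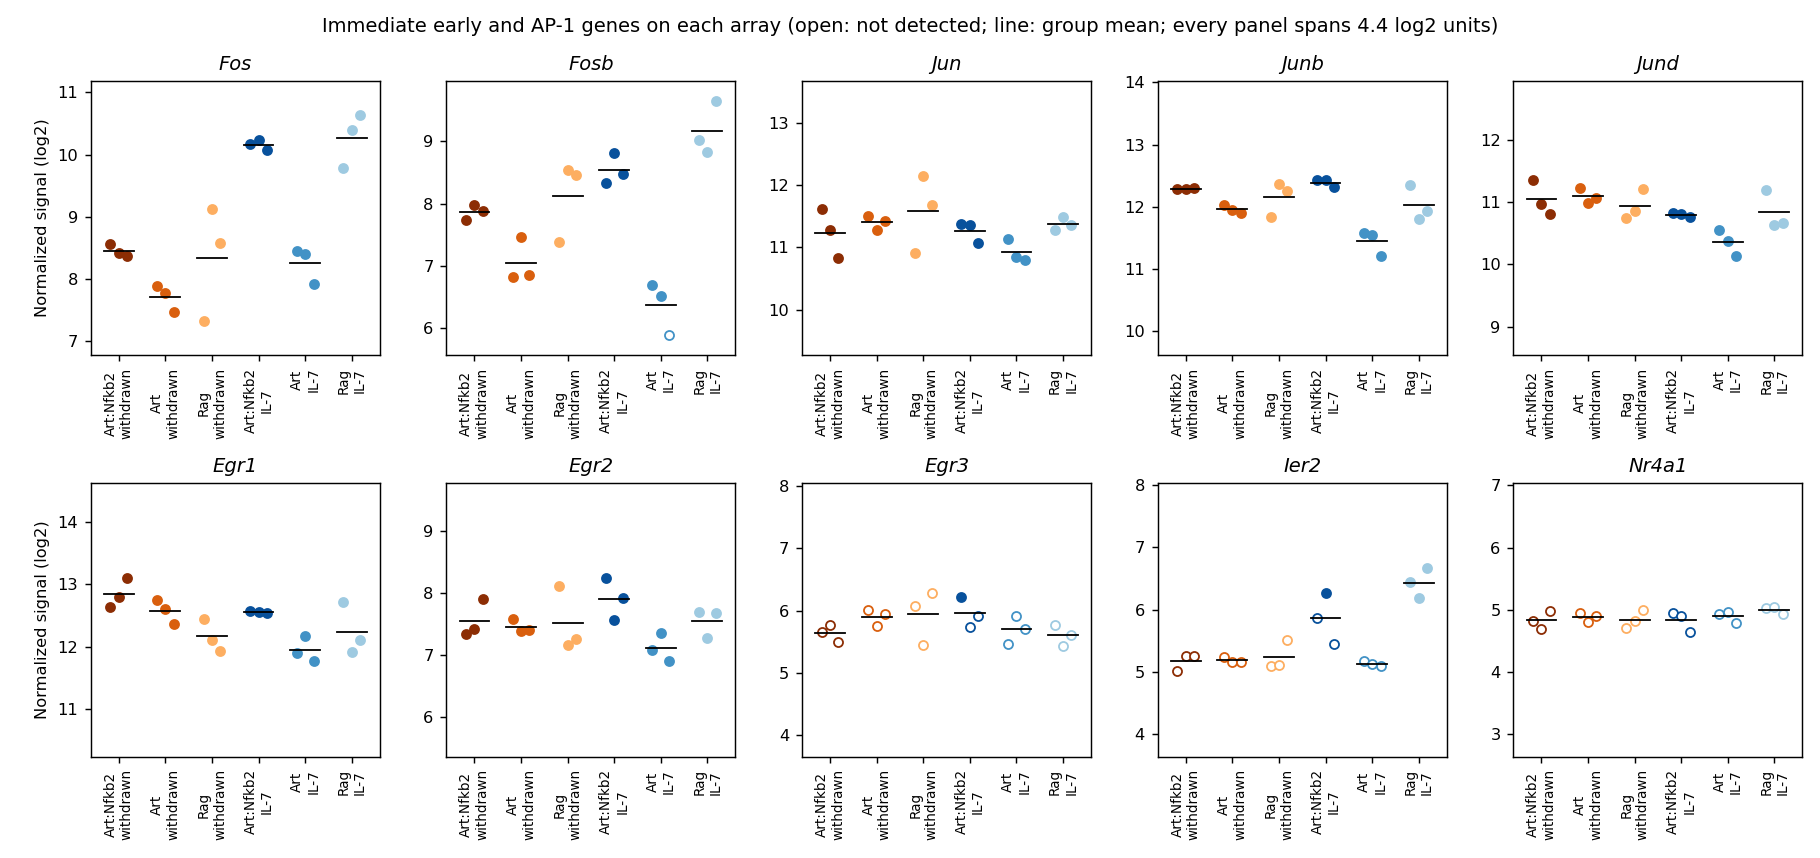
Normalized log2 signal (vertical axes, each spanning the same number of log2 units) of the 10 genes on each of the 18 arrays, by group, with the group mean as a line and open points where the probe was not detected. Fos is lower after withdrawal in Rag-labelled and Art:Nfkb2-labelled cells, and every Ier2 point after withdrawal is open. The Art-labelled IL-7 arrays have the lowest group mean for Fosb, Jun, Junb, Jund, Egr1 and Egr2, and for Ier2, where all their points are open.

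Whether withdrawal acted differently between genotypes was tested as a difference of differences. Between Art-labelled and Rag-labelled cells, limma called 0 of the 7 members other than Ier2 and gave 4 an unadjusted p under 0.05, where 0.781% of all genes were higher and 1.27% were called. Ier2 is not read here, since no Art-labelled array detected it in either condition. Fosb differed by 1.71 (0.81 to 2.61, adjusted p = 0.0671) and Fos by 1.38 (0.39 to 2.37, adjusted p = 0.192), and with the culture as a block both were called (0.0179 for Fosb and 0.0136 for Fos). Fosb was also called without the Rag-labelled withdrawn replicate 2 (1.92, adjusted p = 0.0497).

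The withdrawal response of Art:Nfkb2-labelled cells minus that of Art-labelled cells was called by limma in 0 members and had an unadjusted p under 0.05 in 3 of the 7, where 0.213% of all genes were called. The 3 were Fos (-1.17, adjusted p = 0.689), Fosb (-1.35, 0.387) and Junb (-0.61, 0.497). The response of Art:Nfkb2-labelled minus Rag-labelled cells was called in 0 members, with 0 at an unadjusted p under 0.05, where 1.94% of all genes were called. The interval for Fos there was -0.77 to 1.21, so differences within it were not excluded with 3 arrays a group.

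Among the members, Fos and Fosb varied together over the 18 arrays (Pearson r = 0.81, and 0.76 after group means were removed), as did Junb and Jund (0.70 and 0.68) and Egr1 and Egr2 (0.61 and 0.69). Fos and Jun had r = 0.24 over all arrays and 0.79 within groups. These values describe 18 arrays from 9 cultures, so the arrays of a culture are not independent. The genes outside the set whose signal was most like Fos were Rgs1 (r = 0.94), Dab2 (0.93) and Cd14 (0.91), of which Cd14 is a myeloid marker. For Fosb they were Camk2b (0.90), Hoxa7 (0.86) and Bag3 (0.79), a chaperone partner induced by heat shock. For Junb they were Ppp1r15a (0.87), Cirbp (0.84) and Dynlt3 (0.83), for Jund Klf13 (0.88), Gapvd1 (0.84) and Tor1aip1 (0.83), and for Jun Il2ra (0.82), Slc6a19 (0.76) and Vasn (0.76). For Egr1 they were Ovgp1 (0.92), Sptbn1 (0.86) and Ufsp1 (0.85), and for Egr2 Hsd3b7 (0.81), Cul1 (0.80) and Elmod2 (0.70).

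The rest of the pathway was followed through gene lists. Of 28 other immediate early genes tested (36 listed), withdrawal raised 6 and lowered 5 in Art:Nfkb2-labelled cells, raised 13 and lowered 3 in Art-labelled cells and raised 8 and lowered 5 in Rag-labelled cells. The lowered counts include Atf3 and Myc, which few or no withdrawn arrays detected and which passed the filter through IL-7 arrays. Over all genes tested, the same comparisons raised 22.7% and lowered 17.9%, raised 26.2% and lowered 18.8%, and raised 25% and lowered 19.4%, the background of every withdrawal count that follows. The median difference of the list was 0.12, 0.45 and 0.21 in that order of genotypes, beside 0.09, 0.11 and 0.10 for all genes tested. In IL-7, 0 were higher and 6 lower in Art-labelled than in Rag-labelled cells (3.63% and 2.83% of all genes), and 3 were higher and 0 lower in Art:Nfkb2-labelled than in Art-labelled cells (3.01% and 1.39% of all genes). The lists and the members share no gene.

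Genes that ERK is known to induce, many of which damp it again, were called in both directions. Of 11 tested (19 listed), withdrawal raised 1 and lowered 3 in Art:Nfkb2-labelled cells, raised 2 and lowered 2 in Art-labelled cells and raised 1 and lowered 2 in Rag-labelled cells. Dusp6, the phosphatase that switches off ERK and is itself induced by it, rose by 0.52 in Art-labelled cells (adjusted p = 0.00768) and fell by 0.40 in Rag-labelled cells (adjusted p = 0.0317), and its difference in Art:Nfkb2-labelled cells was 0.33 (adjusted p = 0.0745, and 0.0184 with the culture as a block). The Art minus Rag difference of these responses was 0.92 (adjusted p = 0.0369), but it was called under only 11 of 21 alternatives. The fall in Rag-labelled cells was called under 7 of 15. Of the 11 genes, 3 were higher and 3 lower with the Art than with the Rag label after withdrawal. Their median difference was -0.33, while 10.1% of all genes were higher and 8.89% lower. Setting the Art:Nfkb2 label against the Rag label gave 3 higher and 5 lower, with a median of -0.11. There, 12.6% of all genes were higher and 13% lower. After withdrawal Dusp6 was higher by 0.59 in Art:Nfkb2-labelled and by 0.58 in Art-labelled than in Rag-labelled cells (adjusted p = 0.00589 and 0.00812), the second of which was lost when arrays were scaled to a common median (0.0818).

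Etv5, an ETS factor downstream of ERK, rose on withdrawal by 0.59 in Art:Nfkb2-labelled cells (adjusted p = 0.0275) and by 0.86 in Art-labelled cells (adjusted p = 0.00257). In Rag-labelled cells its difference was 0.02 (adjusted p = 0.935). The Art-labelled value was called under 15 of 15 alternatives and the Art:Nfkb2-labelled one under 9 of 16. After withdrawal it was higher by 1.07 in Art-labelled than in Rag-labelled cells (adjusted p = 0.00118), where 1 of 3 Rag-labelled arrays detected it. Phlda1 and Id1, from the same list, were lower after withdrawal than with the Rag label. Phlda1 differed by -0.97 with the Art label (adjusted p = 0.00326) and by -0.92 with the Art:Nfkb2 label (0.00354). Id1 differed by -0.95 with the Art:Nfkb2 label (adjusted p = 0.0101). With the Art label Id1 was at least 1.63-fold lower (adjusted p = 0.0142, called under 11 of 15 alternatives). No Art-labelled withdrawn array detected Id1. Spry2, an ERK inhibitor, and Nab2, which represses EGR proteins, were detected on no array.

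Dusp1, a phosphatase of the MAP kinases from the immediate early group, was called between genotypes in IL-7. It was higher by 1.0 in Art:Nfkb2-labelled than in Art-labelled cells in IL-7 (adjusted p = 0.011) and differed by -0.63 between Art-labelled and Rag-labelled cells (adjusted p = 0.0865). Withdrawal lowered it by 1.10 in Rag-labelled cells (log2 difference -1.10, adjusted p = 0.000522), and its differences in the other genotypes were -0.50 (Art:Nfkb2-labelled, adjusted p = 0.0621, called with the culture as a block at 0.00727) and 0.18 (Art-labelled, adjusted p = 0.492). The Art minus Rag difference of responses was 1.29 (adjusted p = 0.0425, called under 10 of 21 alternatives). Klf6, a zinc finger factor of the same group, rose by 0.52 in Art-labelled cells (adjusted p = 0.0094) and fell by 0.41 in Rag-labelled cells (adjusted p = 0.032), and its response differed by 0.93 (adjusted p = 0.0394, called under 10 of 21 alternatives). The fall in Rag-labelled cells was called under 7 of 15 alternatives and the rise in Art-labelled cells under 14 of 15. With the mean of all its probes in place of the brightest, the fall in Rag-labelled cells was -0.17 (adjusted p = 0.435) and the difference of responses 0.65 (adjusted p = 0.234).

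Atf3, a stress-induced CREB family factor that pairs with JUN, was lower after withdrawal in all 3 genotypes by the test (adjusted p = 0.00238, 0.0151 and 0.00348 with the Art:Nfkb2, Art and Rag labels), but was near background. The withdrawn arrays detected it on 1, 0 and 0 of 3 arrays in that order and the IL-7 arrays on 3, 1 and 3, so the Rag label allows a bound of at least 1.12-fold lower, no fold is given for the Art label, and the difference in Art:Nfkb2-labelled cells was -1.07. Myc, detected on 7 IL-7 arrays and on no withdrawn array, had bounds of at least 1.30-fold lower (Art label, adjusted p = 6.28e-06) and at least 1.06-fold lower (Rag label, 2.61e-05) after withdrawal, and none above 1 with the Art:Nfkb2 label (0.00052). Like Ier2, Myc passed the detection filter through its IL-7 arrays, where it is high, and so did Atf3 but for 1 withdrawn array. Their adjusted p-values for withdrawal are therefore given as a description. Ier3, an early gene that prolongs ERK activity, fell by 1.41 in Art:Nfkb2-labelled cells (log2 difference -1.41, adjusted p = 0.000255), and its differences were -0.54 and -0.31 in Art-labelled and Rag-labelled cells (adjusted p = 0.0728 and 0.311), both called lower with the culture as a block (0.000972 and 0.0224). Zfp36, which speeds the decay of short-lived messages, rose by 0.67 in Art-labelled cells (adjusted p = 0.000111) and by 0.43 in Rag-labelled cells (adjusted p = 0.00396), the second lost under median scaling (0.194) and when only these groups were fitted (0.0502). In IL-7 it was lower in Art-labelled than in Rag-labelled cells (log2 difference -0.59, adjusted p = 0.00273). Srf rose by 0.34 in Art-labelled cells (adjusted p = 0.0222, called under 11 of 15 alternatives) and had differences of 0.26 and 0.17 in Art:Nfkb2-labelled and Rag-labelled cells, the first called with the culture as a block (0.0455).

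**Figure D4:**
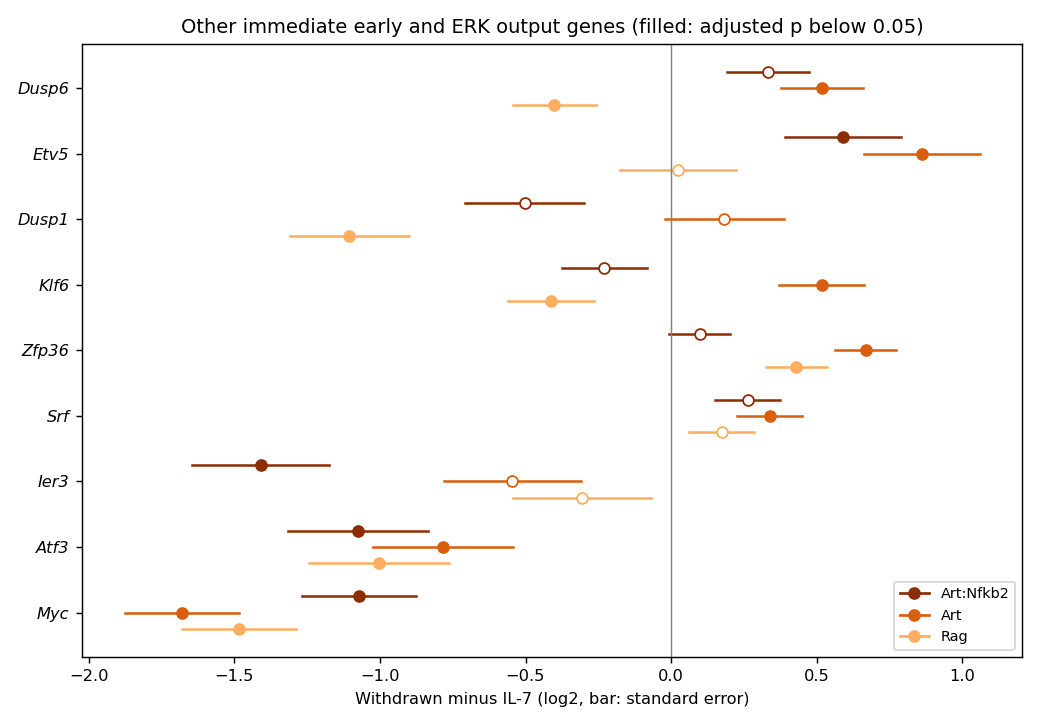
Log2 difference between withdrawn and IL-7 cells (horizontal axis, bars for 1 standard error) of 9 early and ERK-output genes outside the set (rows) in Art:Nfkb2-labelled, Art-labelled and Rag-labelled cells; filled points have an adjusted p below 0.05. Dusp6 and Klf6 lie on opposite sides of 0 in Art-labelled (0.52 and 0.52) and Rag-labelled cells (-0.40 and -0.41), while Atf3 and Myc lie below 0 in all 3 genotypes, with few or no withdrawn arrays that detected them.

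In the cascade that leads to ERK, 18 genes were tested (31 listed). Withdrawal raised 6 and lowered 0 in Art:Nfkb2-labelled cells, raised 10 and lowered 0 in Art-labelled cells and raised 6 and lowered 1 in Rag-labelled cells, with medians of 0.24, 0.39 and 0.26, where 40.6%, 45% and 44.4% of all genes were called and 22.7%, 26.2% and 25% raised. Rasgrp3, which loads RAS with GTP, rose by 1.24 in Art:Nfkb2-labelled cells (adjusted p = 0.000773) and by 1.12 in Art-labelled cells (adjusted p = 0.00139), and its difference in Rag-labelled cells was 0.25 (adjusted p = 0.411). It was also higher by 1.45 in Art:Nfkb2-labelled than in Art-labelled cells in IL-7 (adjusted p = 0.0022). Rasgrp1, which does the same in lymphocytes, fell by 0.63 in Rag-labelled cells (log2 difference -0.63, adjusted p = 0.00296). Rras, a RAS relative, rose in all 3 genotypes (0.44, 0.68 and 0.49 in Art:Nfkb2-labelled, Art-labelled and Rag-labelled cells), as did Elk3, an ETS partner of SRF (0.91, 0.85 and 0.77). After withdrawal, 3 of the 18 were higher and 0 lower in Art:Nfkb2-labelled than in Art-labelled cells (median -0.02, beside 1.78% and 2.21% of all genes). They were Rasgrp3 (10.23 against 8.66, adjusted p = 0.000773), Rasgrp1 (12.41 against 11.45, 0.000857) and Rras (9.87 against 9.34, 0.00441). Each was called under 16 of 16 alternatives.

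Upstream, withdrawal raised 3 and lowered 1 of 13 tested genes of the proximal pre-B cell receptor list in Art:Nfkb2-labelled cells, raised 3 and lowered 0 in Art-labelled cells and raised 6 and lowered 0 in Rag-labelled cells. Syk, the receptor's first kinase, rose by 0.65, 0.67 and 0.72 in that order (adjusted p = 0.00298, 0.00205 and 0.00135), and was lower in Art-labelled than in Rag-labelled withdrawn cells (log2 difference -0.57, adjusted p = 0.0129). Of 12 JNK and p38 genes tested, withdrawal raised 4 and lowered 1 with the Art:Nfkb2 label, raised 5 and lowered 1 with the Art label, and raised 4 and lowered 1 with the Rag label. Mapk11, p38β, rose by 0.86 in Art:Nfkb2-labelled and 1.22 in Art-labelled cells (adjusted p = 0.000416 and 1.37e-05), and its response was larger by 1.06 in Art-labelled than in Rag-labelled cells (adjusted p = 0.0242, called under 13 of 21 alternatives).

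Of the 7 other AP-1 family genes tested (17 listed), withdrawal raised 0 and lowered 2 in Art:Nfkb2-labelled cells, raised 1 and lowered 1 in Art-labelled cells and raised 0 and lowered 3 in Rag-labelled cells. The lowered counts include Atf3, which was near background, and in Art-labelled cells it is the only gene lowered. Batf, an AP-1 factor without a transactivation domain, fell by 0.73 in Rag-labelled cells (log2 difference -0.73, adjusted p = 0.000234). After withdrawal it was higher by 1.33 in Art:Nfkb2-labelled and by 1.28 in Art-labelled than in Rag-labelled cells (adjusted p = 1.04e-06 and 2.79e-06). The Fosb differences there were -0.26 (adjusted p = 0.584) and -1.09 (adjusted p = 0.0175, called under 9 of 15 alternatives). Heat shock genes, which handling of cells can induce together with Fos, were tested beside the members: of 8, withdrawal raised 0 and lowered 2 in Art:Nfkb2-labelled cells, raised 0 and lowered 3 in Art-labelled cells and raised 1 and lowered 3 in Rag-labelled cells. Bag3 was lower in Art-labelled than in Rag-labelled cells in IL-7 (log2 difference -1.5, adjusted p = 0.00935), the only 1 of the 8 called there, where 2.83% of all genes were lower, and its part in the Fos and Fosb differences was not tested.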

How the data were processed

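RNA of 18 samples was hybridized to 1-colour Illumina arrays. The authors deposited a non-normalized intensity per probe and array with a detection p-value, per the file headers, and a series matrix of linear, background-subtracted intensity (29.5% to 29.7% of values below 0, column medians of 19.99 to 20.29, rank correlation of 1 with the same array; its steps were not given in the sources used here). Partek and GenomeStudio are named in the submitters' processing notes. Samples were grouped and numbered by their titles, because the genotype field writes Art:Nfkb2 without the knockout mark on Nfkb2.

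Signals were processed with neqc of limma 3.58.1 in R 4.3.3 (normexp with detection p-values, quantile normalization, log2, offset 16, which understates differences of dim genes). Of the probes, 23978 had 1 gene symbol, 0 several and 1719 none. A probe had to be detected on 3 or more arrays (11356 were), and a gene was read from its brightest such probe, which gave 8446 entries, 673 of them by probe ID. The 12 comparisons came from 1 lmFit and eBayes fit of 6 groups of 3 arrays, two-sided, with Benjamini-Hochberg adjustment over all entries of a comparison. Intervals are 95% intervals of that fit, and the number of arrays limits their precision. The code was tested on simulated data. Columns of per-sample values not used: 0.

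Arrays with the same genotype and replicate number come from 1 culture per the design text, and their deviations from the group means correlated at 0.333 to 0.613 in 9 pairs, against at most -0.0271 between other numbers. The fit with culture as a block is therefore given where it changes a call or a missed call of a gene difference printed here. Members and gene lists were chosen with earlier results of these data known. The rule named all 10 members, 11 early genes whatever their value, and the 3 most correlated genes of each member detected on at least 9 arrays. It also named, from each list, up to 4 of the called genes with the largest differences. Of these genes, Id3, Map3k8, Mapkapk3, Map2k6, Prkcb, Prkcd, Blk, Hspd1, Hspa8, Btg2 and Fosl2 are not described here. Hspd1 and Prkcb came first in their lists under the rule, so the genes described are not always those with the largest differences. No slide was named, so no slide block was fitted. Sequences came from RefSeq promoter tables of GRCm38.p6, and all 10 members matched by Entrez gene.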

Additional observations from a re-analysis of the deposited data

Results flagged for a closer look

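Withdrawal differed between Art-labelled and Rag-labelled cells, by the test of the difference itself, for Dusp1 (Art minus Rag 1.29), Dusp6 (0.92), Klf6 (0.93) and Mapk11 (1.06), called under 10, 11, 10 and 13 of 21 alternatives. The same test gave 1.25 for Ier2, which 3 of 3 Rag-labelled IL-7 arrays detected but no Art-labelled array in either condition, so that value sets background against background on the Art side and is not read as a difference in response. Between Art:Nfkb2-labelled and Rag-labelled cells withdrawal differed for Batf (0.82, adjusted p = 0.0201, called under 16 of 22 alternatives) and for Sgk1, a kinase of the early group (-1.08, adjusted p = 0.0444, called under 8 of 22 and with an adjusted p of 0.18 under median scaling). Groups of 3 arrays are too small for a formal test of single arrays that lie far from the others. Each array was left out in turn, as given below.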

How the results depend on the processing

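Over the 96 differences of the 8 tested members, 1640 values were recomputed under alternatives, of which 1574 kept their direction and their side of the threshold, 40 lost a call, 26 gained one and 0 reversed. The number of members called, Ier2 included, changed as follows. Withdrawal in Art-labelled cells (3 with all arrays) gave 5 when the 2 groups were fitted alone, 6 with the replicate block and 1 to 3 when each array was left out in turn. Art against Rag after withdrawal (1) gave 0 when fitted alone, 0 with array weights and 0 to 2 with an array left out. Art:Nfkb2 against Art after withdrawal (0) gave 2 when fitted alone (Fos, adjusted p = 0.0184, and Fosb, 0.0439) and 2 with array weights (Fos, 0.0479, and Junb, 0.0477). Art:Nfkb2 against Rag gave, after withdrawal (1), 0 without the Y-linked culture and 0 to 2 with an array left out, and in IL-7 (1) 0 without background correction, from the series matrix, without the detection filter, fitted alone or without that culture, and 0 to 1 with an array left out. The withdrawal response of Art minus Rag (1) gave 3 with the replicate block, 2 with array weights and 0 to 2 with an array left out, and that of Art:Nfkb2 minus Art (0) gave 1 when fitted alone (Fos, adjusted p = 0.0452). With an array left out, counts were 3 to 4 for Art against Rag and for Art:Nfkb2 against Art in IL-7, 2 to 3 for withdrawal in Rag-labelled cells and 2 to 2 in Art:Nfkb2-labelled cells. The block changed no member call other than those given. No member call changed under median scaling, which moved the median of all genes by over 0.1 in places (Art minus Rag in IL-7 -0.15, against -0.01 with quantile normalization). The 360 differences of the other named genes gave 6150 values, of which 5754 kept call and direction and 0 reversed. The causes were not tested. Over all genes, calls moved by over 1.5 times in groups fitted alone (withdrawal in Rag-labelled cells 2094 against 3753, Art against Rag 980 against 1607 after withdrawal and 248 against 546 in IL-7, Art:Nfkb2 against Rag in IL-7 617 against 963, and the responses of Art minus Rag 42 against 107, Art:Nfkb2 minus Art 39 against 18 and Art:Nfkb2 minus Rag 108 against 164), without the detection filter (Art:Nfkb2 minus Art response 9 against 18) or background correction (11 against 18), with the replicate block (responses 363 against 107, 92 against 18 and 431 against 164), with array weights (757 against 337, 602 against 371 and 55 against 18), without the Y-linked culture (2261 against 3428, 197 against 371, 4 against 18 and 93 against 164) and under median scaling (246 against 371, 57 against 107 and 8 against 18). Median scaling also moved the share of higher calls, to 33.8% against 56.2% for withdrawal in Rag-labelled cells, 33.9% against 56.2% for Art against Rag in IL-7, 33.1% against 58.6% for Art:Nfkb2 against Rag in IL-7 56.6% against 44.5% for Art:Nfkb2 against Art after withdrawal, and 77.2% against 61.7%, 37.5% against 50% and 80.5% against 51.2% for the 3 responses. Without background correction the share of the Art:Nfkb2 minus Art response was 63.6%. Egr3 and Nr4a1 were limited by signal over background.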

Other observations

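Sgk1, an early gene and kinase under control of PI3K, had the widest genotype difference of the other immediate early genes named. Its log2 signal averaged 10.91 ± 0.24, 11.33 ± 0.21 and 12.88 ± 0.30 (SD, n = 3) in Art:Nfkb2-labelled, Art-labelled and Rag-labelled withdrawn cells, and 10.90 ± 0.26, 10.44 ± 0.18 and 11.79 ± 0.24 (SD, n = 3) in the same genotypes in IL-7. Withdrawal raised it in Art-labelled cells (0.89, adjusted p = 0.00115) and Rag-labelled cells (1.09, adjusted p = 0.000247).

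Hspa1a, a stress-induced chaperone, averaged 4.99 ± 0.12, 6.26 ± 0.11 and 7.48 ± 0.10 (SD, n = 3) in Art:Nfkb2-labelled, Art-labelled and Rag-labelled withdrawn cells, and no Art:Nfkb2-labelled array detected it in either condition. After withdrawal the Art:Nfkb2-labelled cells had at least 2.28-fold less signal than the Rag-labelled cells (adjusted p = 6.89e-06). Hspa1a passed the detection filter only through Art-labelled and Rag-labelled arrays, where it is high. Its adjusted p-value is therefore given as a description.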
